A study of Mus musculus with 8 samples.

Results

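The elements described here are MERVL, a mouse endogenous retrovirus of the ERVL family, and the long terminal repeats (LTRs) of the MT2 group that flank it and its older relatives. Members were all rows of the deposited count table whose repeat annotation has class LTR, family ERVL and a subfamily name starting with MERVL or MT2. The rule used names only, and no measured value. It gave 34693 copies among the 4835895 regions of the table, of which 2968871 are copies of retrotransposons. There were 1307 copies of MERVL-int, the internal protein-coding part of the retrovirus, and 2565 of MT2_Mm, its own LTR. The older LTR subfamilies were MT2C_Mm with 1882 copies, MT2A with 7601, MT2B1 with 5634, MT2B with 10267 and MT2B2 with 3393, together 28777 copies. MERVL_2A-int, an internal part annotated separately from MERVL-int, had 2044 copies.

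MERVL is a young mouse retrovirus whose transcripts mark the 2-cell embryo, where MT2_Mm acts as a promoter both for the virus and for many host genes. The transcription factor Dux activates it there and in a rare state of embryonic stem cells, while repressive chromatin keeps it silent in most somatic cells. A complete provirus carries 1 internal part between 2 LTRs, and recombination between these LTRs leaves a solo LTR behind. The older MT2 subfamilies were inserted earlier, so their copies have diverged more from one another and a sequencing read from them can be placed more uniquely.

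The study profiled open chromatin by ATAC-seq, in which a transposase cuts accessible DNA, in primary lung fibroblasts of mice. There were 4 libraries from cGAS knockout (KO) mice and 4 from wild-type (WT) mice, with 2 labelled female and 2 labelled male in each genotype, each from its own mouse according to the series design. cGAS is a sensor of cytosolic DNA that also binds nucleosomes in the nucleus, and the series asks how its loss changes chromatin accessibility. All cells were grown in 5% CO2 and 5% O2, and the labels name no treatment for any group. Strain, age, passage and the nature of the knockout allele are not given in the sources used here. In what follows KO F1 stands for the first KO library labelled female, and the other libraries are named likewise. The loss of cGAS and the fibroblast identity of the cells were not checked, because gene positions of the build used by the table, GRCm39, were not used here.

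Library totals ran from 43.2 M to 72.9 M counts. The libraries differed in how much of the table fell on retrotransposon copies outside open chromatin regions (OCRs, the authors' peaks): 14.8% in WT M1, 15.1% in KO M1, 16.3% in WT M2, 19.8% in WT F2, 20.7% in KO F1, 20.9% in KO F2, 25.0% in WT F1 and 25.5% in KO M2. These shares leave the members out, and KO and WT libraries lay at both ends of the order. A second difference was that the library labelled KO F2 carried counts on Y-chromosome copies at the level of the male-labelled libraries (values are given further down), so results are also given without it. Levels below are in scaled CPM, that is CPM with the library total multiplied by a trimmed-mean scaling factor. To compare subfamilies of different length they are also given as scaled CPM per Mb of annotated sequence.

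MERVL-int varied by nearly as much within a genotype as over all 8 libraries, and neither it nor its LTR separated the genotypes. MERVL-int had 834, 871, 640 and 1147 scaled CPM in KO F1, F2, M1 and M2, and 1001, 931, 838 and 1120 in WT F1, F2, M1 and M2. The lowest value was in KO M1 and the highest in KO M2, so the KO libraries spanned the whole WT range. MT2_Mm had 237, 222, 159 and 301 scaled CPM in the KO libraries in the same order, and 265, 219, 170 and 202 in the WT libraries. Here too KO M1 was lowest and KO M2 highest. The means were 873 ± 209 in KO and 973 ± 119 in WT for MERVL-int, and 230 ± 58.2 and 214 ± 39.8 for MT2_Mm (SD, n = 4 libraries each). These are bulk libraries, so fewer cells with an open element and less signal per cell cannot be told apart.

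The older LTRs, with their copies in OCRs included, varied less. MT2A, the most counted of them, had 692 ± 26.7 scaled CPM in KO and 702 ± 18.6 in WT. MT2B1 had 446 ± 25.2 and 444 ± 34.3, MT2B 368 ± 21.8 and 358 ± 22.3, MT2B2 202 ± 9.64 and 199 ± 6.67, and MT2C_Mm 166 ± 21.1 and 165 ± 16.7 (KO then WT, SD, n = 4 libraries each). The internal part MERVL_2A-int had 482 ± 32.7 in KO and 482 ± 23.5 in WT. In each of these 6 subfamilies the KO and WT libraries overlapped. The share of all retrotransposon subfamilies in which they overlap is not given here, so the overlap is no trait of the members.

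**Figure D1:**
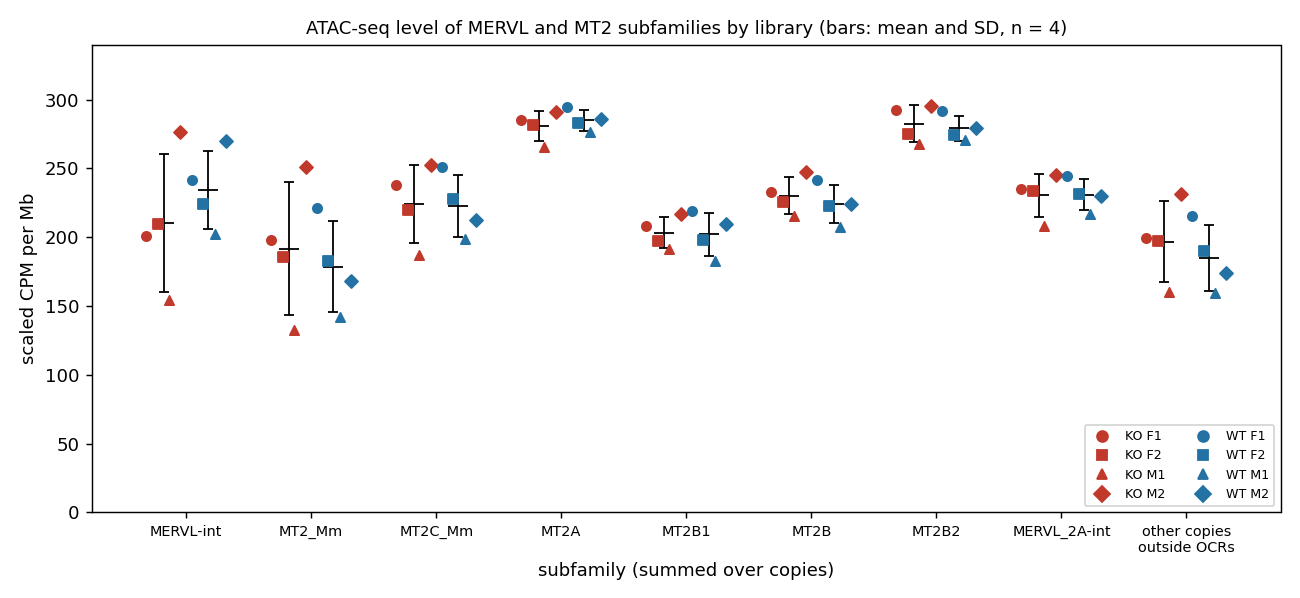
Scaled CPM per Mb of annotated sequence for each member subfamily and, at the right, for all other retrotransposon copies outside OCRs; each point is 1 of the 8 libraries and black bars give the mean and SD of 4. MERVL-int lies between 154 and 276 and MT2_Mm between 132 and 251, and in both KO M1 is the lowest library and KO M2 the highest.

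Per Mb, the young elements lay close to the level of other retrotransposon sequence outside OCRs. MERVL-int had 201, 210, 154 and 276 scaled CPM per Mb in KO F1, F2, M1 and M2 and 241, 224, 202 and 270 in WT F1, F2, M1 and M2. MT2_Mm had 198, 186, 132 and 251 in KO and 221, 182, 142 and 168 in WT. Other retrotransposon copies outside OCRs had 199, 197, 160 and 231 in KO and 215, 190, 160 and 174 in WT. KO M1 was low and KO M2 high in all 3 series. WT M2 was different: its MERVL-int level was near the top while its MT2_Mm level and its level of other copies were the third lowest. Divided by the level of other copies in the same library, MERVL-int was at 1.01, 1.07, 0.965 and 1.20 in the KO libraries and at 1.12, 1.18, 1.26 and 1.55 in the WT libraries. MT2_Mm ranged from 0.828 to 1.08 over the 8 libraries. The older MT2 subfamilies together ranged from 1.12 to 1.42, and from 0.955 to 1.06 when only their copies outside OCRs were counted.

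On this relative scale MERVL-int was higher in WT than in KO on average, but the groups overlapped between 1.12 and 1.20. The mean log2 of the relative level was 0.08 ± 0.13 in KO and 0.34 ± 0.21 in WT (SD, n = 4 libraries each). The difference of -0.27 had an interval from -0.69 to 0.09 and did not pass the exact two-sided permutation test (p = 0.0857, 70 assignments, of which the smallest possible p is 0.0286). WT M2 contributed much of it: without that library the difference was -0.17. Without the library labelled KO F2 it was -0.27. This scale was chosen after the data were seen.

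In the comparison of KO with WT over summed subfamilies, none of the 8 member subfamilies passed the test. The fit used edgeR's quasi-likelihood test with the sex label as covariate on 831 retrotransposon subfamilies, with Benjamini-Hochberg adjustment over all of them and a threshold of 0.05. It called 0 of the 831 subfamilies, a background of 0%. At an unadjusted p under 0.05 it held 0 of the 8 members, against 15 of 831 (1.81%). DESeq2 and limma also called 0 members at an adjusted p under 0.05, and at an unadjusted p under 0.05 they held 0 and 1, against 28 of 831 subfamilies (3.37%) in each tool. MERVL-int had a log2 fold of -0.16 (SE 0.18), which is 0.897-fold with a 95% interval from 0.663 to 1.21 (edgeR adjusted p = 0.875). MT2_Mm had a log2 fold of 0.11 (SE 0.21), which is 1.08-fold with an interval from 0.773 to 1.52 (edgeR adjusted p = 0.875). Both values moved with single libraries. Without KO M1 the log2 fold of MERVL-int was -0.01, without KO M2 it was -0.36, without WT M1 it was -0.24 and without WT M2 it was -0.07. Only without KO M2 was its unadjusted edgeR p under 0.05, at 0.0357 (edgeR adjusted p = 0.991), where 10 of 831 subfamilies were under 0.05. Without KO M2 the log2 fold of MT2_Mm turned to -0.14, and it was 0.24, 0.21 and 0.03 without KO M1, WT F1 and WT M1. Without the library labelled KO F2 the values were -0.17 for MERVL-int and 0.17 for MT2_Mm.

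The intervals of the older subfamilies were narrower. These sums include copies overlapping an OCR, which held 17.7 to 28.8% of the older LTR counts and 33.8 to 48.6% of those of MERVL_2A-int. In MT2_Mm they held 3.86 to 8.48%. Intervals without such copies are not given here, and the part of these copies in the narrower intervals was not tested. MT2A was at 0.986-fold with an interval from 0.905 to 1.07, and MT2B2 at 1.01-fold with an interval from 0.929 to 1.10. MERVL_2A-int was at 0.999-fold with an interval from 0.899 to 1.11. MT2B was at 1.03-fold (0.923 to 1.15), MT2B1 at 1.01-fold (0.891 to 1.14) and MT2C_Mm at 1.01-fold (0.852 to 1.20). The signs of these small values depended on the scaling and on single libraries. The median log2 fold was 0.01 over the 8 members, 0.06 over all 831 subfamilies and -0.01 over the 103 other ERVL subfamilies. A test of whether the genotype difference depended on the sex label called 0 of the 8 members and 0 of 831 subfamilies (0%), with edgeR adjusted p-values from 0.859 to 0.971 in the members and 0 of 831 at an unadjusted p under 0.05. It rests on 2 libraries per genotype and sex label, and on the label of KO F2. Without that library, a fit added after the data were seen that assumes the lone female KO library varies like the other groups, it again called 0 of the 8 and 0 of 831 (0%), with 0 and 1 at an unadjusted p under 0.05.

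**Figure D2:**
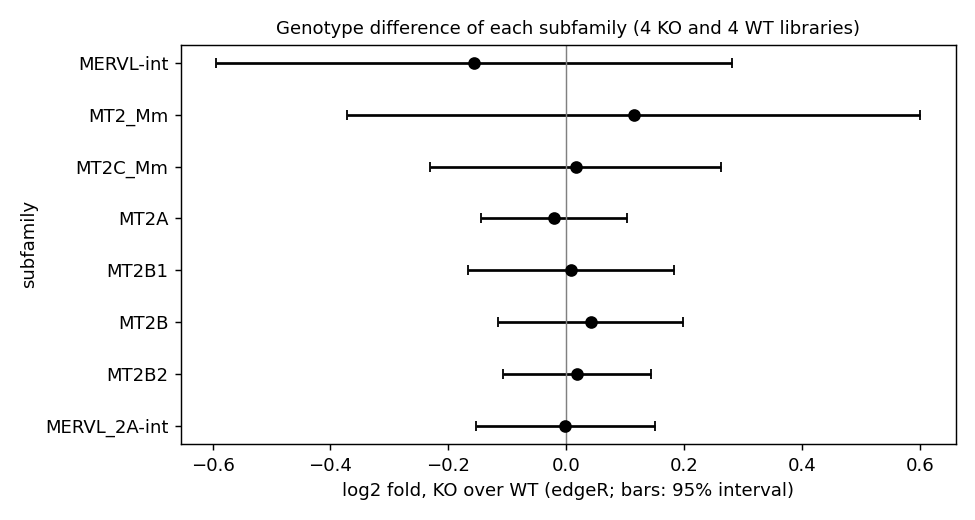
Log2 fold of KO over WT for the 8 member subfamilies from the edgeR fit on 4 KO and 4 WT libraries; points are estimates and bars 95% intervals. Every interval includes 0, and those of MERVL-int and MT2_Mm are the widest.

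Ratios within a library do not depend on the scaling, and they set MERVL-int above its own LTR. The log2 ratio of MERVL-int to MT2_Mm, both per length, was 0.02, 0.18, 0.22 and 0.14 in KO F1, F2, M1 and M2, and 0.12, 0.30, 0.51 and 0.68 in WT F1, F2, M1 and M2. All 8 libraries were above 0, and the KO libraries, together with WT F1, were all at or below 0.22. The mean was 0.27 ± 0.22 (SD, n = 8 libraries), and an exact two-sided sign-flip permutation test against 0 gave p = 0.0078, adjusted p = 0.0117 over the 3 ratios tested. The raw p is the smallest that 256 sign changes can give. Between genotypes the ratio was 0.14 ± 0.09 in KO and 0.40 ± 0.24 in WT (SD, n = 4 libraries each). The difference of -0.26, with an interval from -0.65 to 0.09, did not pass the exact two-sided permutation test (p = 0.114, adjusted p = 0.343). It was -0.17 without WT M2, the library with the highest ratio, and -0.28 without the library labelled KO F2.

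MT2_Mm lay below the older MT2 subfamilies in every library. The log2 ratio of MT2_Mm to the older LTRs was -0.33, -0.37, -0.78 and -0.04 in KO F1, F2, M1 and M2, and -0.22, -0.40, -0.68 and -0.53 in WT F1, F2, M1 and M2. KO M1 and WT M1 were the lowest and KO M2 was close to 0. The mean was -0.42 ± 0.24 (SD, n = 8 libraries; exact two-sided sign-flip permutation test, p = 0.0078, adjusted p = 0.0117). The call was lost when copies overlapping an OCR were left out: the mean was then -0.15, with an adjusted p of 0.0703 in the same exact test. KO and WT differed in this ratio by 0.08, with an interval from -0.56 to 0.64 (exact two-sided permutation test, p = 0.686). Against single older subfamilies, MT2_Mm was above MT2B1 in KO M2 (251 against 217 scaled CPM per Mb) and in WT F1 (221 against 219). It was also above MT2B in KO M2 (251 against 248). In all other cases MT2_Mm was the lower, with copies in OCRs included. The order was different with copies outside OCRs only. MT2_Mm was then above MT2B1 in KO F1, F2 and M2 and in WT F1 and F2, and below it in KO M1, WT M1 and WT M2. In KO M2 it was then also above the older LTRs together, at 1.06 against 0.955 relative to other copies outside OCRs. It was below them in the other libraries.

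MERVL-int and the older LTRs could not be ordered. Their log2 ratio was -0.31, -0.19, -0.56 and 0.10 in the KO libraries and -0.10, -0.10, -0.17 and 0.15 in the WT libraries, above 0 in 2 of 8 (KO M2 and WT M2). The mean was -0.15 ± 0.22 (SD, n = 8 libraries; exact two-sided sign-flip permutation test, p = 0.102, adjusted p = 0.102). It changed sign to 0.17 with copies outside OCRs only (adjusted p = 0.0703). It passed the threshold at -0.23 with autosomal copies only (adjusted p = 0.0312) and at -0.22 with each copy weighted equally (adjusted p = 0.0117, all in the same exact test). KO and WT differed by -0.18, with an interval from -0.70 to 0.27 (exact two-sided permutation test, p = 0.257, adjusted p = 0.386).

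The position of MERVL-int above its LTR was not shared by the other retroviruses compared. MERVL_2A-int lay below MT2A by 0.30 on the log2 scale on average, with libraries from -0.35 to -0.25. IAPEz-int, the internal part of intracisternal A particles, lay below its LTR IAPLTR1_Mm with a mean log2 ratio of -0.71. The means were -1.01 for MMETn-int and RLTRETN_Mm, -0.71 for MMVL30-int and RLTR6_Mm, -0.76 for RLTR4_MM-int and RLTR4_Mm, and -1.41 for MMERVK10C-int and RLTR10C. Each of these 6 ratios was below 0 in 8 of 8 libraries. In every library the MERVL-int ratio exceeded each of the others, with mean gaps from 0.57 (MERVL_2A-int) to 1.68 (MMERVK10C-int) on the log2 scale. Exact two-sided sign-flip permutation tests of the 6 gaps each gave p = 0.0078, the smallest possible, and an adjusted p of 0.0078. With each gap above 0 in all 8 libraries these tests could give no other value, so they add nothing to that count. They concern agreement among libraries and do not test whether MERVL differs from other retroviruses. These gap tests were added after the data were seen. How reads were placed among near-identical copies is not given in the sources used here, and its part in these ratios was not tested. All pairs were compared with copies overlapping an OCR included, and the part of such copies in the 6 other ratios was not tested.

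**Figure D3:**
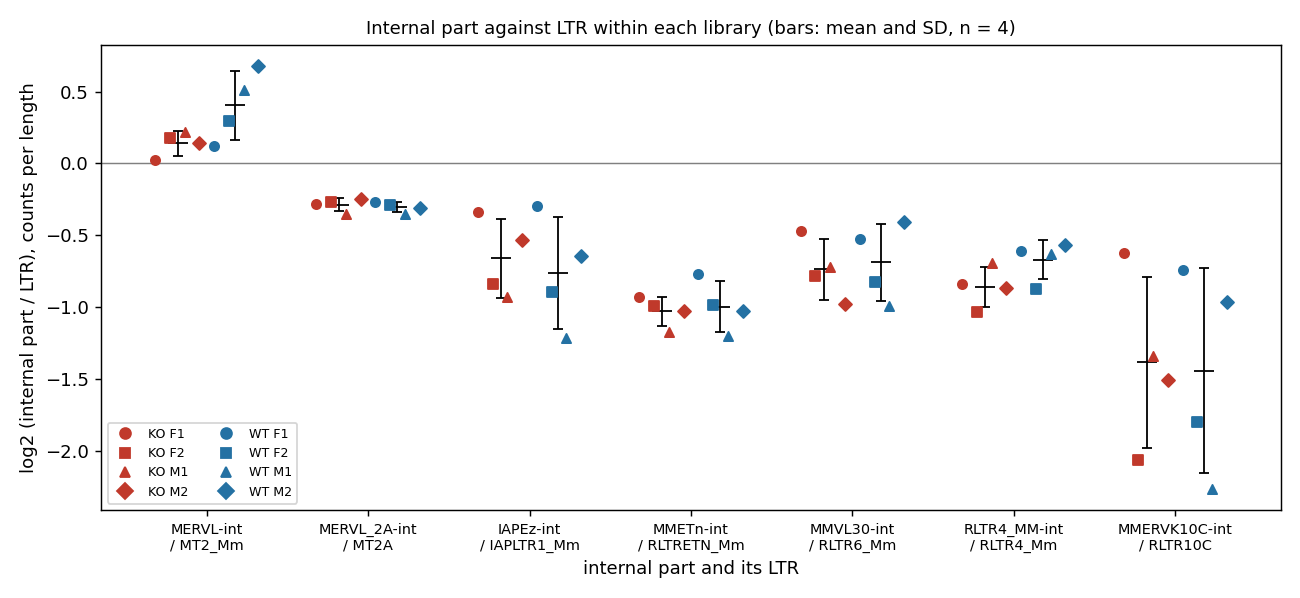
Log2 ratio of the internal part to its LTR, both per annotated length, for MERVL-int with MT2_Mm and for 6 other pairs; each point is a library and black bars give the mean and SD of 4. The MERVL-int points run from 0.02 to 0.68, and the other pairs are below 0 in all 8 libraries.

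The structure of the MERVL-int copies was described next, since full internal parts and fragments could differ. Of the 1307 copies, 681 were 4 kb or longer (median 5360 bp), 164 were 1 to 4 kb and 462 were shorter than 1 kb. The long copies made up 3.61 of the 4.15 Mb of MERVL-int sequence. Long copies had 201, 211, 155 and 280 scaled CPM per Mb in KO F1, F2, M1 and M2, and 243, 227, 207 and 278 in WT F1, F2, M1 and M2. Copies under 1 kb had 204, 211, 156 and 245 in the KO libraries and 223, 203, 172 and 210 in the WT libraries. In KO F1, F2 and M1 the classes were level, at ratios of long to short copies from 0.985 to 1.00. In the other 5 libraries the long copies were higher, at ratios of 1.14 in KO M2, 1.09 in WT F1, 1.12 in WT F2, 1.20 in WT M1 and 1.32 in WT M2. No test was run on these classes.

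MT2_Mm copies were divided by whether a MERVL-int copy lay within 100 bp. The 1465 flanking LTRs had 195, 180, 126 and 250 scaled CPM per Mb in KO F1, F2, M1 and M2 and 218, 173, 134 and 163 in WT F1, F2, M1 and M2. The 1100 solo LTRs had 202, 194, 142 and 252 in KO and 226, 197, 154 and 176 in WT. Solo LTRs were thus higher in each of the 8 libraries, by ratios of only 1.01 to 1.15. Long MERVL-int copies exceeded the flanking LTRs by ratios of 1.03, 1.17, 1.23 and 1.12 in the KO libraries and 1.11, 1.32, 1.55 and 1.70 in the WT libraries. WT M1 and WT M2 were above every other library.

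**Figure D4:**
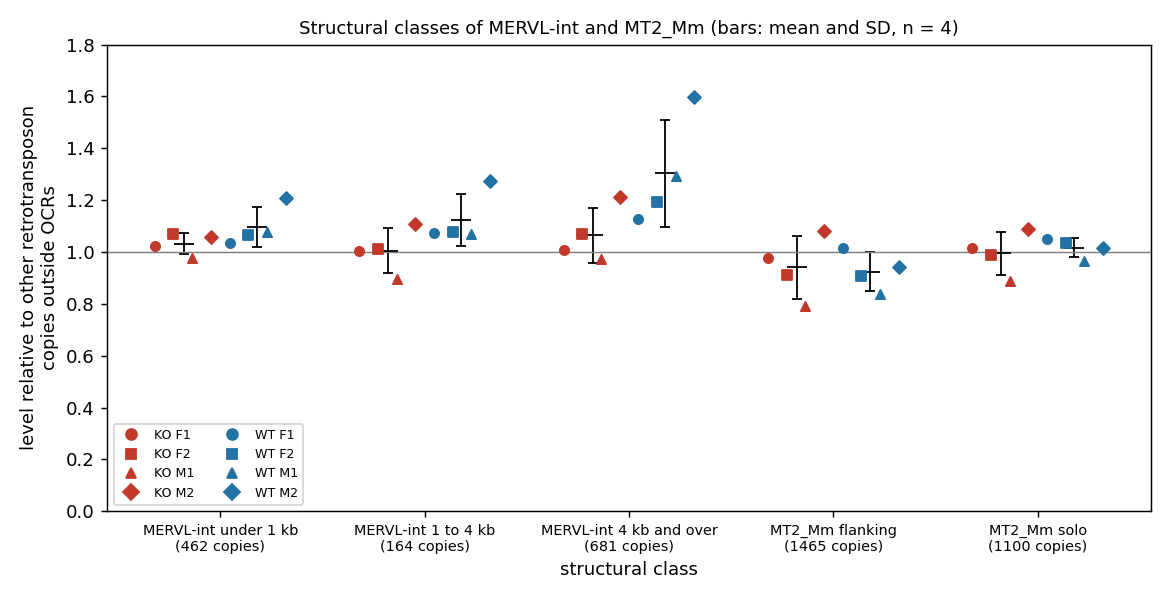
Level per Mb of 3 length classes of MERVL-int and of flanking and solo MT2_Mm, divided by the level of other retrotransposon copies outside OCRs in the same library; points are libraries and black bars give the mean and SD of 4. MERVL-int copies of 4 kb and over run from 0.971 in KO M1 to 1.60 in WT M2, and flanking MT2_Mm from 0.790 to 1.08.

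The element number in the annotation, which ties an internal part to the LTRs of the same insertion, gave another grouping, chosen after the data were seen. Of the MERVL-int copies, 689 shared a number with an MT2_Mm copy, 63 with an MT2C_Mm copy and 25 with another MT2, while 530 shared it with no MT2. Copies tied to MT2_Mm had 155 to 283 scaled CPM per Mb over the libraries, and copies tied to no MT2 had 158 to 272. The copies tied to MT2C_Mm had 174, 195, 135 and 206 in KO F1, F2, M1 and M2 and 198, 184, 184 and 216 in WT F1, F2, M1 and M2. They were below the MT2_Mm-tied copies in each library. MERVL_2A-int was counted by length in the same way: its 601 copies of 1 to 4 kb had 224 to 265 scaled CPM per Mb, its 96 copies of 4 kb and over 188 to 231, and its 1347 shorter ones 181 to 213.

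The lowest library in MERVL-int was the same on each autosome, and the highest was 1 of 2. On each of the 19 autosomes KO M1 was the lowest library for MERVL-int, and the highest was KO M2 on 12 and WT M2 on 7. Among the 681 long copies KO M1 was lowest in 459 (67.4%), KO M2 highest in 280 (41.1%) and WT M2 highest in 251 (36.9%). MT2_Mm did not show the high level of WT M2: KO M2 was highest on 16 autosomes and WT F1 on 3, and KO M1 was lowest on 14 and WT M1 on 5. For the older MT2 subfamilies KO M2 and WT F1 were each highest on 8 autosomes. Autosomes and copies were all measured in the same libraries and are not independent. These counts therefore describe the libraries and do not replicate their order.

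Counts were shared more evenly among MERVL-int copies than among those of the other subfamilies. The 14 most counted copies, the top 1%, held 2.79% of the counts of MERVL-int, and the top 26 copies of MT2_Mm held 5.44%. In the older LTRs the top 1% held more, from 10.9% in MT2C_Mm to 24.5% in MT2B2, and in MERVL_2A-int 18.5%. The median copy had 53.6 counts per library, as a mean over the 8, in MERVL-int, 4.75 in MT2_Mm and 1 in MT2B. Single LTR copies are therefore measured with little precision at this depth.

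Few young elements lay in OCRs. An OCR overlapped 34 of 1307 MERVL-int copies by at least 1 base, or 2.60% (95% Wilson interval 1.87 to 3.61%), and 43 of 2565 MT2_Mm copies, or 1.68% (1.25 to 2.25%). The share was 3.59% in the older MT2 subfamilies (3.38 to 3.81%), 6.56% in MERVL_2A-int (5.56 to 7.71%) and 4.20% over all retrotransposon copies. The other ERVL copies stood at 7.63%. Because MERVL-int copies are long, the difference was larger per length, at 8.19 overlapping copies per Mb in MERVL-int, 35.9 in MT2_Mm and 134 in the older LTRs. Overlapping copies held 2.79 to 4.49% of the MERVL-int counts over the libraries, 3.86 to 8.48% of the MT2_Mm counts and 17.7 to 28.8% of those of the older LTRs. In MERVL_2A-int they held 33.8 to 48.6%. When at least 50% of the copy had to lie inside the OCR, the shares were 0.383% for MERVL-int and 0.039% for MT2_Mm, which is 5 copies and 1 copy. A copy inside an OCR shares its counts with it in this table.

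The 9 most counted copies, 3 each of MERVL-int, MT2_Mm and the older LTRs, all overlapped an OCR. In MERVL-int these were copies at 10:86417627-86422930, 5:150627325-150631421 and 10:85591454-85594223 (GRCm39; the strand is not given in the table). The first is 5228 bp long in 3 fragments, with 662 bp in an OCR. It had 1.61, 3.33, 2.48 and 2.41 scaled CPM in KO F1, F2, M1 and M2 and 2.35, 3.48, 4.84 and 5.51 in WT F1, F2, M1 and M2. WT M1 and WT M2 were highest and the groups overlapped. Its log2 fold was -0.66 (SE 0.27, edgeR adjusted p = 1 over all copies tested). The second had 2.67 ± 0.19 in KO and 3.04 ± 0.39 in WT, and the third 1.89 ± 0.63 and 2.88 ± 1.04 (SD, n = 4 libraries each). In MT2_Mm the copy at 3:51125434-51125918, with 259 of 485 bp in an OCR, led with 1.21 ± 0.47 in KO and 1.15 ± 0.35 in WT. It was followed by copies at 12:54411965-54416072 and 11:72223299-72223790. Among the older LTRs an MT2A copy at 15:75795234-75795603, wholly inside an OCR, led with 5.72 ± 1.00 in KO and 7.23 ± 2.00 in WT, followed by MT2B2 at 15:97458175-97458734 and MT2B at 8:106871989-106872595.

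In the fit of single copies, 6490 of the 34693 members passed the filter on low counts, among 570571 retrotransposon copies tested. edgeR called 0 of the 6490 members at an adjusted p under 0.05, and 0 of all copies (0%). At an unadjusted p under 0.05 it held 200 members, 94 of them higher in KO, against a background of 3.54% of all copies in either direction and 2.58% higher in KO. The split by direction moved with 1 library: without KO M2 it was 66 members higher and 230 lower, in place of 94 and 106, and the share of all copies higher in KO was 1.68%. DESeq2 gave an adjusted p to 1735 members and called 1, against 63 of 117026 copies (0.0538%). Of MERVL-int, 941 copies were tested in edgeR, with 4 higher and 22 lower in KO at that unadjusted p, or 2.76% in all. Of MT2_Mm, 615 were tested, with 9 higher and 7 lower, or 2.60%. Both shares, with the directions pooled, were below the 3.54% of all copies. By direction MERVL-int went the other way from all copies. Of its 26 copies under that p, 22 were lower in KO, while 14743 of the 20200 among all copies were higher in KO. The median log2 fold of the MERVL-int copies was -0.15, beside -0.16 for the summed subfamily. Their split by direction is therefore no separate evidence. The tested numbers of the other subfamilies were 423 of MT2C_Mm, 1705 of MT2A, 928 of MT2B1, 619 of MT2B, 405 of MT2B2 and 854 of MERVL_2A-int.

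The copies with the lowest p were older LTRs, except for 1 MT2_Mm copy. The copy called by DESeq2 is an MT2B of 573 bp at 10:83057591-83058163, with no OCR overlap. It had 0.707, 0.965, 0.758 and 1.20 scaled CPM in KO F1, F2, M1 and M2 and 0.327, 0.295, 0.333 and 0.309 in WT F1, F2, M1 and M2. Every KO library was above every WT library, but a copy picked by its low p tends to separate the groups. The share of all tested copies that separate them is not given here. Its log2 fold was 1.51 (SE 0.34), with an adjusted p of 0.848 by edgeR and 0.0422 by DESeq2. The other 2 with the lowest p on the side higher in KO were an MT2B2 at 1:16729789-16730063, with a log2 fold of 1.54, and an MT2A at 2:22942637-22942924, wholly in an OCR, with 1.33 (edgeR adjusted p = 0.848 and 0.915). On the side lower in KO were an MT2B1 at 13:55759911-55760506, with -1.60, and an MT2A at 2:163368893-163369227, with -1.69 (edgeR adjusted p = 0.848 and 0.850). The MT2_Mm copy at 2:135114187-135114678 had 0.0942, 0.180, 0.104 and 0.150 scaled CPM in the KO libraries and 0.229, 0.419, 0.482 and 0.464 in the WT libraries. All KO libraries were lower, at a log2 fold of -1.57 (edgeR adjusted p = 0.948), and this copy too was picked by its low p.

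Copies annotated to the Y chromosome followed the sex labels, except in the library labelled KO F2, in some subfamilies and not in others. There were 1464 such members (4.22%), among them 379 of MERVL_2A-int (18.5% of its copies), 494 of MT2B1 (8.77%), 426 of MT2A, 113 of MT2B, 28 of MT2_Mm and 13 of MERVL-int. The Y copies of MT2B1 had 5.94 and 9.23 scaled CPM in KO M1 and M2 and 3.82 and 7.58 in WT M1 and M2. They had 0.173 in KO F1, 0.098 in WT F1 and 0.0776 in WT F2. The library labelled KO F2 had 4.83, within the male-labelled range. MT2A and MERVL_2A-int also separated these libraries, with 1.35 and 1.05 in the library labelled KO F2 and no more than 0.0163 in the remaining libraries with a female label.

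The 13 Y copies of MERVL-int did not follow the sex labels. They had 5.34, 5.63, 4.74 and 8.08 scaled CPM in KO F1, F2, M1 and M2 and 6.27, 5.31, 5.02 and 7.90 in WT F1, F2, M1 and M2. KO F1, WT F1 and WT F2, which had almost no counts on the Y copies of MT2A, had 340, 384 and 342 counts there. The 28 Y copies of MT2_Mm likewise had 1.40, 1.47 and 1.40 scaled CPM in these 3 libraries and 0.683 to 2.04 in the male-labelled ones. The 113 Y copies of MT2B, an older LTR, had 0.762, 0.735 and 0.799 in the same 3 libraries, also within the male-labelled range of 0.631 to 1.44. Counts on Y copies of MERVL-int, MT2_Mm and MT2B were thus present in libraries that had almost none on those of MT2B1, MT2A and MERVL_2A-int, and the values of single copies given above are uncertain in this respect.

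**Figure D5:**
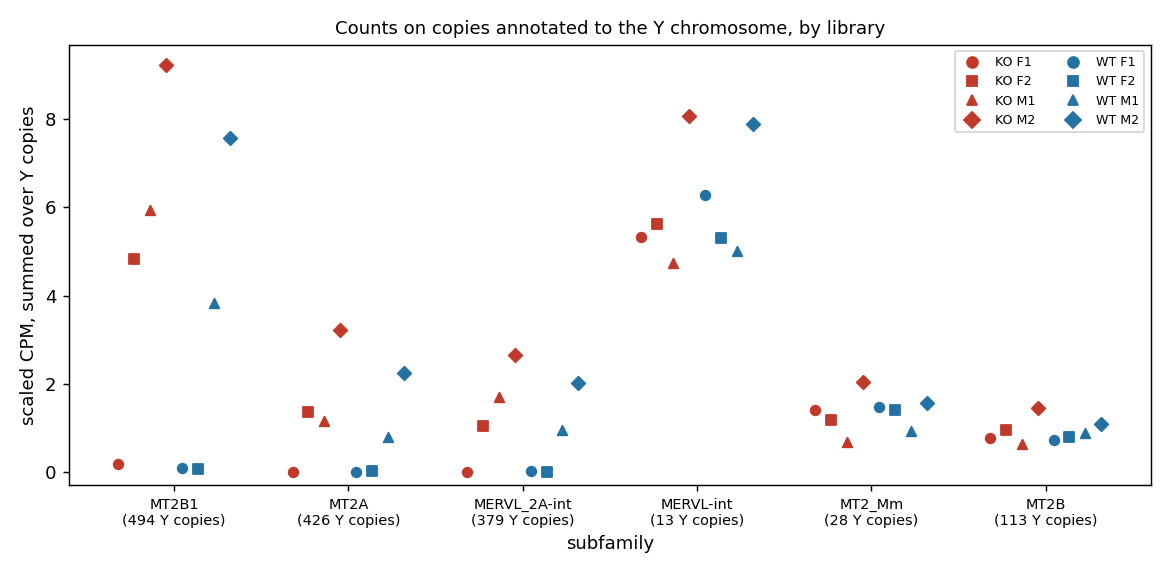
Scaled CPM summed over copies annotated to the Y chromosome, for 6 member subfamilies; each point is a library. MT2B1, MT2A and MERVL_2A-int are near 0 in KO F1, WT F1 and WT F2 and at 0.798 or more in the other 5 libraries, while MERVL-int has 4.74 to 8.08 and MT2B 0.631 to 1.44 over all 8.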

How the data were processed

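ATAC-seq counts of 8 libraries of primary mouse lung fibroblasts were used. The authors deposited estimated counts per region: per the file headers, featureCounts 2.0.3 assigned read pairs by their 5′ ends to peaks and repeat copies together and divided a pair over all regions it overlapped. Bowtie2, MACS2, bedtools, Trim Galore, Picard and SAMtools, and the build GRCm39, are listed in the submitters' processing notes. The option to count multi-mapping reads is not in the featureCounts command of the header. How reads matching several places were aligned or kept is not given in the sources used here. Estimated counts were rounded before each fit. Fractional sharing lowers the counts of copies inside peaks.

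Members and lists were chosen with earlier results of these data known. The library size was the table total (43.2 M to 72.9 M counts) times a trimmed mean of M values (TMM) factor from peaks and filtered copies (0.905 to 1.13). Subfamily sums with a mean of at least 100 counts, and single copies kept by filterByExpr, were tested with edgeR 4.0.16 (quasi-likelihood, robust, sex label as covariate; R 4.3.3), with Benjamini-Hochberg adjustment. DESeq2 1.42.0 and limma 3.58.1 were alternatives. Ratios were tested by exact permutation, with difference intervals of 95% from inverting that test. Wilson intervals cover counting error only.

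Named copies were the 3 with the highest mean scaled CPM in each of MERVL-int, MT2_Mm and the older MT2 subfamilies, and the 3 with the lowest p in each direction. In simulated counts for the 831 subfamilies, edgeR found 88.1% of the features changed 1.5-fold, while 97.0% were found at 2-fold and 20.9% at 1.2-fold. For 28529 simulated copies the share found was 51% at 4-fold and 0% at 2-fold. Many randomly picked features were changed at once and libraries were drawn independently, whereas edgeR called 0 of 831 subfamilies in the data. The shares are averages over features. They do not give the power for MERVL-int or MT2_Mm, whose log2 folds had standard errors of 0.18 and 0.21.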

Additional observations from a re-analysis of the deposited data

How the results depend on the processing

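MERVL-int kept its negative KO against WT log2 fold in all 20 alternatives (-0.36 to -0.01), with no adjusted p under 0.05, and the MERVL-int to MT2_Mm ratio kept its direction and its side of the threshold in all 14 (level 0.19 to 0.32, genotype difference -0.36 to -0.17). The unfiltered TMM factors, the scaling to other copies outside OCRs and the ratios with long MERVL-int or flanking MT2_Mm copies were chosen after seeing the data. MT2_Mm turned to -0.0740 in limma with sample weights, and ranged from -0.141 to 0.241 with 1 library left out. Values near 0 changed sign. MT2C_Mm, MT2B1 and MT2B2 were at -0.0238, -0.0259 and -0.0155 with TMM factors from all copies without a filter. They were at -0.0509, -0.0502 and -0.0404 with factors from retrotransposon copies only, where MT2B was at -0.0186, and at -0.0154, -0.0228 and -0.0132 with DESeq2 size factors. In limma MT2C_Mm was at -0.0630 and MT2B1 at -0.0135. MT2A and MERVL_2A-int were at 0.0470 and 0.0699 with factors from OCRs only and at 0.0186 and 0.0463 with copies outside OCRs. With 1 library left out the ranges were -0.0997 to 0.0827 for MT2C_Mm, -0.0539 to 0.00402 for MT2A, -0.0448 to 0.0496 for MT2B1, -0.0178 to 0.0773 for MT2B, -0.0199 to 0.0432 for MT2B2 and -0.0598 to 0.0397 for MERVL_2A-int. For these the cause was not tested. DESeq2 called 1 member copy and edgeR 0. Member copies lower in KO at an unadjusted p under 0.05 numbered 63 of 6490 with factors from OCRs only, in place of 106 of 6490. With a mean of at least 20 counts they numbered 40 of only 1837 tested, so this is not a fall in share. In either direction, 2.28% of members were under that p with OCR factors, against 2.72% of all copies. With at least 20 counts these shares were 3.05% and 4.14%, and in the main fit 3.08% and 3.54%. Of all copies, 2.18% were under that p and higher in KO with OCR factors, 3.02% with at least 20 counts and 2.58% in the main fit. Members on that side numbered 85, 16 and 94 in the same order. The side lower in KO was thus a larger part of the members under that p than of all copies under it. Outside OCRs the MERVL-int to older MT2 level was 0.17 and the MT2_Mm to older MT2 level -0.15. With autosomal copies or equal weights the former was -0.23 and -0.22. The genotype difference of MT2_Mm to older MT2 ranged from -0.0327 to 0.212 with 1 library left out.

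Same-numbered KO and WT libraries did not deviate together in every pair (r = 0.637, 0.323, 0.699 and -0.215 over 831 subfamilies for F1, F2, M1 and M2), so the numbers were not taken to pair samples. With a replicate block MERVL-int was at -0.18 and MT2_Mm at 0.08. The block called 0 of 8 members and 0 of 6490 copies, held 28 of 831 subfamilies at an unadjusted p under 0.05 in place of 15, and 285 of 6490 member copies (4.39%) in place of 200 (3.08%), while all copies went from 3.54% to 4.83%.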
